A study of Mus musculus with 6 samples.

Results

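The 10 genes described here, Ccl2, Ccl3, Ccl4, Ccl6, Ccl7, Ccl8, Ccl9, Ccl11, Ccl12 and Ccl24, encode CC chemokines known from monocytes and macrophages. They were chosen by symbol from 20866 genes named on a mouse microarray, each through its brightest probe by mean over 6 arrays, and each had 1 probe. The choice was made with their levels across the sorted thymic populations and their differences between genotypes already known, so all of these values are descriptions, and no test is given for them.

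The study compared mice lacking both TNFalpha and RelA (TNFalpha and RelA double KO, the double KO below) with TNFalpha-KO mice, all on C57BL/6. RelA, also called p65, is a subunit of NF-kB. Its loss alone is lethal before birth through TNF, so TNF, itself an inducer of several of these chemokines, was missing from every group. The mice were between 1.5 and 2 weeks old. In each genotype 3 sorted populations were profiled, with 1 array a group: CD45+EpCAM- thymic stroma, a leukocyte-bearing stromal sort described as enriched for macrophages or dendritic cells, and CD45-EpCAM+ thymic epithelial cells, both from 10 thymi, and CD4+CD25hi thymocytes from 5 mice. RNA came from pooled cells, so that the spread between animals is not measured, and in such bulk samples fewer cells of a type and less RNA per cell cannot be told apart.

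CC chemokines are small secreted proteins that draw leukocytes through G-protein-coupled receptors. CCL2, CCL7 and CCL12 attract monocytes through CCR2. CCL3 and CCL4 act on macrophages and T cells. The eotaxins CCL11 and CCL24 attract eosinophils through CCR3, and CCL24 is also known from macrophages activated by interleukin 4. Several of these genes, Ccl2 among them, are textbook targets of NF-kB in macrophages and stromal cells.

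In the RefSeq table of assembly GRCm38.p6 the genes fall into 3 chromosomal neighbourhoods. Ccl2, Ccl7, Ccl11, Ccl12 and Ccl8 follow each other on chromosome 11, Ccl9, Ccl6, Ccl3 and Ccl4 follow each other at another place on chromosome 11, and Ccl24 lies on chromosome 5 next to Ccl26. RefSeq promoters of build GRCm38.p6 were at hand for 5 of the 10 genes (Ccl3, Ccl6, Ccl8, Ccl9 and Ccl12). In the 250 bases before the gene start, 1 of the 5, that of Ccl9, held a match to the kappa B motif, the NF-kB binding motif, on either strand, and 7.01% of 27025 promoters of the same length held one. The same promoter was the only one of the 5 with the AP-1 motif TGANTCA, which 6.87% of promoters held. None of the 5 held the STAT6 motif, which 5.86% of promoters held. The promoter of Ccl9 is shown because it held these matches, and those of Ccl8 and Ccl12 because these neighbouring genes were both higher in double KO CD45+EpCAM- stroma. Each sequence runs 5′ to 3′ toward the gene, from chr11:83578637-83578886 on the minus strand for Ccl9, and from chr11:82114935-82115184 and chr11:82101595-82101844 on the plus strand for Ccl8 and Ccl12. Capitals mark the AP-1 match and, nearer the gene, the kappa B match, which reads on the opposite strand, and these 2 do not overlap.
Ccl9: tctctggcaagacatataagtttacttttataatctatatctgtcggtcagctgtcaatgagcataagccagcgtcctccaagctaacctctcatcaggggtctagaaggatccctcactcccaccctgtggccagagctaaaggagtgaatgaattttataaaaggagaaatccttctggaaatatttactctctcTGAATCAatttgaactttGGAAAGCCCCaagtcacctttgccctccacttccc
Ccl8: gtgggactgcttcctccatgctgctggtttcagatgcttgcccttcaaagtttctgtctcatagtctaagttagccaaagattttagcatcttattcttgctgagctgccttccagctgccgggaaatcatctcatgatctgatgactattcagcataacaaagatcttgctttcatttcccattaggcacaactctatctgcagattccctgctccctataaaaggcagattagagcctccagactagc
Ccl12: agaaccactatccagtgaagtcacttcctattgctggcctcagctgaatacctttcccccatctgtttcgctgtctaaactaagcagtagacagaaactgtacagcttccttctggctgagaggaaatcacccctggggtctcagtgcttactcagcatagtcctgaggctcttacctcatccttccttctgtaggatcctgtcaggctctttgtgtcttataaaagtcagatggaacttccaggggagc

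Levels are log2 of the processed spot signal minus the array's 75th percentile, so that 0 is the 75th percentile of all probes on that array. That percentile was a signal of 675 on the double KO and 633 on the TNFalpha-KO array of CD45+EpCAM- stroma. In CD45-EpCAM+ cells it was 108 on the double KO and 370 on the TNFalpha-KO array, and in CD4+CD25hi thymocytes 272 on the double KO and 318 on the TNFalpha-KO array. The double KO CD45-EpCAM+ array was thus the dimmest, with 47.2% of probes well above background by the scanner software's own call, against 55.1% to 66.2% on the other 5 arrays. The 2 arrays of a population shared a slide, which held no other population, so effects of slide and of population cannot be told apart. The slide of the CD45-EpCAM+ cells was scanned on another day than the others. Rela differed by -0.74 (log2, double KO minus TNFalpha-KO) in CD45+EpCAM- stroma, -1.86 in CD4+CD25hi thymocytes and -2.02 in the epithelial sort; whether its probe lies in the deleted part is not known here. A summed level is log2 of the added signals of a list's genes, dim or not, minus the array's 75th percentile. Its brightest genes weigh most. Epithelial markers summed to 7.60 in the double KO and 7.59 in TNFalpha-KO CD45-EpCAM+ cells. Yet 1 of the 8, Ly75 (1.11), lay at least 2-fold higher in the double KO. At least 2-fold lower were 2, Aire (-1.90) and Cldn4 (-1.37), and Epcam itself differed by -0.63. The 8 summed to -1.51 in double KO and -1.34 in TNFalpha-KO CD45+EpCAM- stroma. T lineage markers summed to 8.25 in double KO and 8.49 in TNFalpha-KO CD45+EpCAM- stroma. In thymocytes they summed to 8.23 in the double KO and 8.29 in TNFalpha-KO. Single genes of that list lay far apart. Dntt was 5.76 in double KO stroma and 0.53 in double KO thymocytes, while Foxp3 was -2.48 in that stroma and 4.79 in those thymocytes. With 1 array a group no difference has a replicate check. As a technical yardstick, differences read by several probes of 1 gene had a pooled SD of 0.21 in CD45+EpCAM- stroma, 0.22 in CD4+CD25hi thymocytes and 0.32 in the epithelial sort.

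The 10 chemokine genes were read mainly in the stromal fractions. In CD45+EpCAM- stroma 9 of 10 were well above background on both arrays, Ccl11 being the exception. In CD45-EpCAM+ cells all 10 passed on both arrays, and in thymocytes 1, Ccl4, did. The other 9 genes were dim in thymocytes. They have no genotype difference there, and at most a bound in contrasts with thymocytes.

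**Figure D1:**
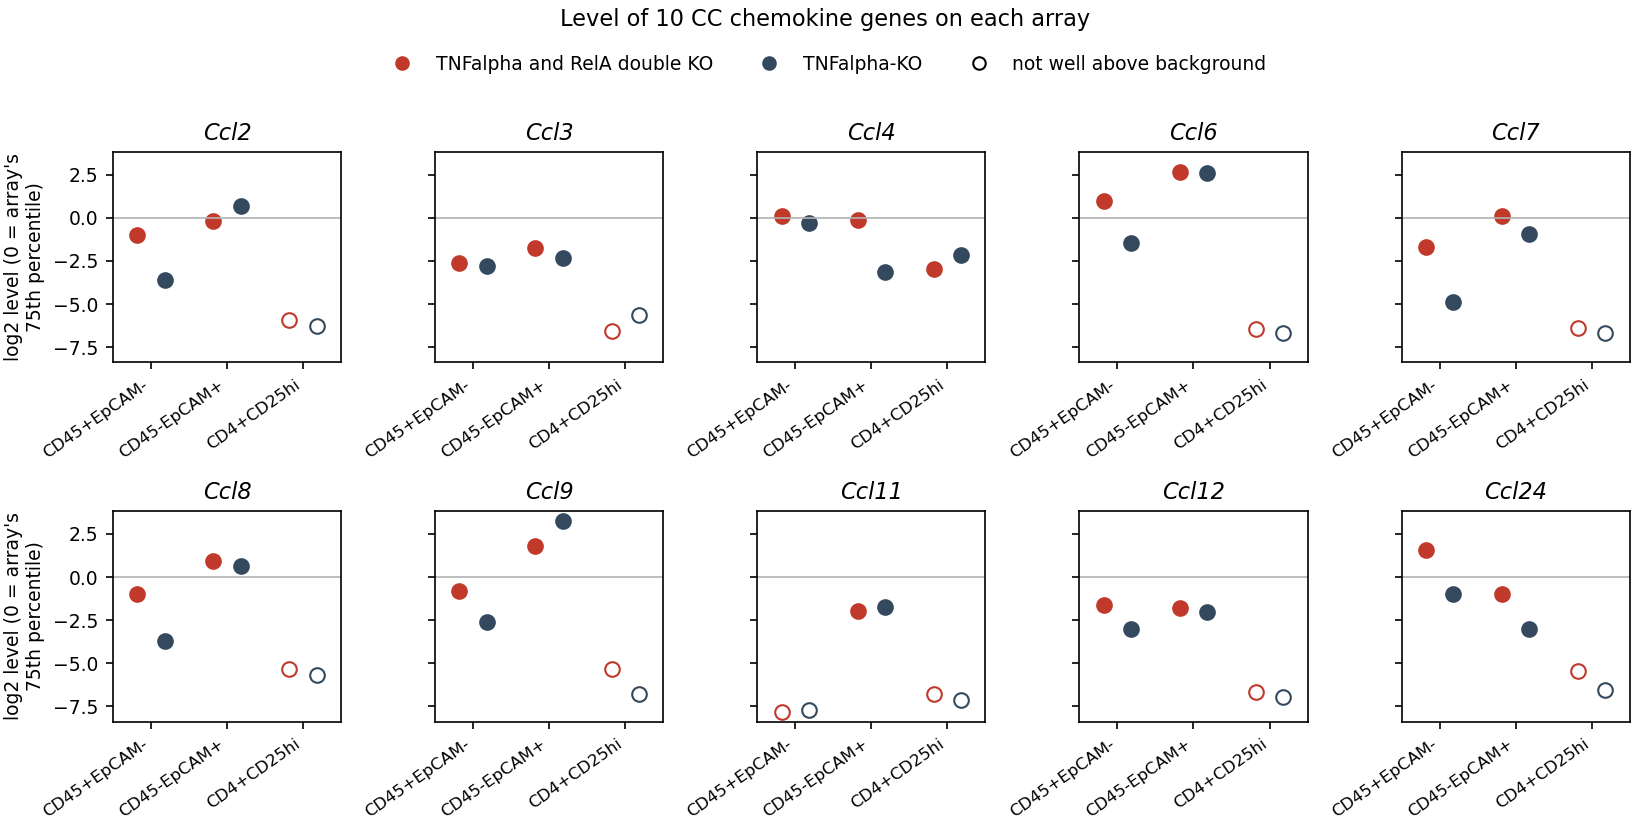
Level of each of the 10 genes (y axis, log2, 0 is the array's 75th percentile) on the double KO array (red) and the TNFalpha-KO array (dark blue) of each population (x axis), 1 point an array, open where the probe was not well above background. Ccl2, Ccl6, Ccl7, Ccl8, Ccl9, Ccl12 and Ccl24 sit higher on the double KO array of CD45+EpCAM- stroma, and in CD4+CD25hi thymocytes Ccl4 alone has filled points.

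In CD45+EpCAM- stroma, 7 of the 9 measured chemokine genes were at least 2-fold higher in the double KO and none was at least 2-fold lower. Over all 14586 genes with a difference there, 1.82% were at least 2-fold higher and 2.08% at least 2-fold lower. The median difference of the 9 genes was 2.42, beside -0.01 over all genes. Because the genes were chosen with these differences known, the counts only describe them. The genes just inside and just outside 2-fold were Ccl12, at 1.39, and Ccl4, at 0.36.

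The 4 genes of the monocyte chemoattractant group, all from the first cluster on chromosome 11, were higher together. Ccl7 had a level of -1.68 in the double KO and -4.86 in TNFalpha-KO stroma, a difference of 3.18 or 9.08-fold, the second highest of the 14586 genes. Its TNFalpha-KO signal was 21.8, close to background, with a scanner error of 20.9%, so the fold depends on a dim spot, and the difference was 1.60 with normexp, a background correction that adds an offset and so compresses dim genes. Ccl8, whose product acts on CCR8 in mice, had levels of -0.98 in the double KO and -3.74 in TNFalpha-KO, a difference of 2.77 or 6.80-fold (1.59 with normexp).

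Ccl2, the best known attractant of monocytes, was printed in 10 spots on each array. Its level was -0.98 ± 0.08 (SD over 10 spots) on the double KO array and -3.61 ± 0.23 (SD over 10 spots) on the TNFalpha-KO array, a difference of 2.63 or 6.18-fold (1.64 with normexp). The 2 sets of spots lie far apart relative to these SDs, which measure the printing and scanning of 1 labelled RNA and not the spread between animals. Ccl12, the mouse chemokine also called MCP-5, had levels of -1.62 in the double KO and -3.01 in TNFalpha-KO, a difference of 1.39 or 2.63-fold. Of the 7 genes it differed least, and with normexp it was under 2-fold, at 0.83.

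Ccl6 and Ccl9, which lie side by side and encode ligands of CCR1 in mice, were also higher. Ccl6 had levels of 0.98 in the double KO and -1.43 in TNFalpha-KO stroma, a difference of 2.42 or 5.34-fold. Ccl9 had levels of -0.82 in the double KO and -2.63 in TNFalpha-KO stroma, a difference of 1.81 or 3.51-fold. Ccl24, the eotaxin known from alternatively activated macrophages, reached 1.57 in the double KO, a signal of 2003, against -1.01, a signal of 315, in TNFalpha-KO stroma. That is a difference of 2.58 or 5.97-fold. Of the 9 genes, 6 (Ccl2, Ccl6, Ccl7, Ccl8, Ccl9 and Ccl24) were among the 100 highest differences of this fraction.

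Ccl3 and Ccl4, neighbours of Ccl6 and Ccl9 that encode MIP-1 alpha and MIP-1 beta, stood apart from the others. Ccl3 had levels of -2.61 in the double KO and -2.80 in TNFalpha-KO stroma, a difference of 0.18, which is within the SD of 0.21 between probes of 1 gene. Ccl4 had levels of 0.09 in the double KO and -0.27 in TNFalpha-KO stroma, a difference of 0.36. Ccl11 was dim on both arrays, with signals of 2.96 in the double KO and 3.04 in TNFalpha-KO stroma.

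**Figure D2:**
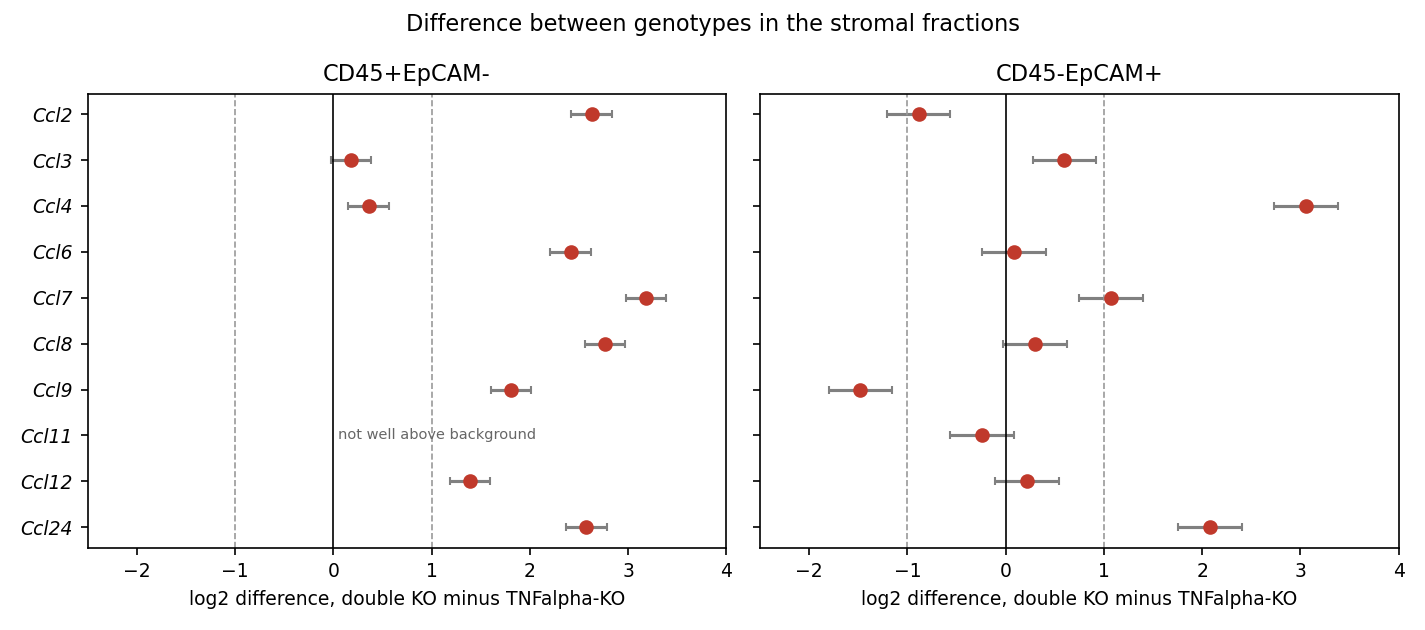
Log2 difference of each gene, double KO minus TNFalpha-KO (x axis), in CD45+EpCAM- stroma (left) and CD45-EpCAM+ cells (right). Each point is 1 pair of arrays, the bars are the pooled SD between probes of 1 gene (0.21 left, 0.32 right), and dashed lines mark 2-fold; 7 of 9 points lie beyond 2-fold on the left, and 4 of 10 on the right.

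Markers of myeloid cells differed in the same pair of arrays. All 11 macrophage markers on the array were well above background on both arrays, and 4 of them (Mertk, Vcam1, Fcgr1 and Cd14) lay at least 2-fold higher in the double KO and none at least 2-fold lower. Their median difference was 0.81, and their summed level was 4.98 in the double KO and 4.12 in TNFalpha-KO stroma, a difference of 0.86. Among defining macrophage genes, C1qa differed by 0.77, Csf1r, the receptor that macrophages need for survival, by 0.68 and Adgre1, the classical macrophage surface antigen, by 0.54, while Timd4 differed by 0.17 and Lyz2, the lysozyme gene, by -0.37. The 8 monocyte markers had a median of -0.16 with none at least 2-fold higher and 1 lower, and Ccr2 itself differed by 0.15. Of the 10 dendritic cell markers 4 lay at least 2-fold lower, none higher, and their median was -0.52. Of 9 granulocyte and mast cell markers with a difference, 5 were at least 2-fold higher, S100a8 by 2.19 and S100a9 by 2.07 among them, and the summed level of that list was 4.57 in the double KO and 2.78 in TNFalpha-KO stroma. The 9 measured chemokine genes, chosen with these differences known, differed by 0.18 to 3.18. The 11 macrophage markers differed by -0.37, for Lyz2, to 1.13, for Mertk. The 9 granulocyte and mast cell markers differed by -0.70, a bound for Prg2, to 2.19, for S100a8. The part of these cell type differences in the chemokine differences was not tested.

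Among the other chemokine genes of the same stroma none was at least 2-fold higher. Of 7 other CC chemokines with a difference 1 was at least 2-fold lower: Ccl17, a dendritic cell chemokine, at -1.16 (a level of -1.72 in the double KO and -0.56 in TNFalpha-KO). Of 7 CXC and other chemokines with a difference 3 were at least 2-fold lower: Cxcl10 at -1.48, Cx3cl1 at -1.24 and Cxcl9 at -1.02. Among 12 inflammatory NF-kB targets with a difference, 3 lay at least 2-fold higher and 2 at least 2-fold lower; the median was -0.26. Lcn2, which encodes an iron-carrier-binding protein of neutrophils, was highest among those read on both arrays, at 1.75, and the cytokine gene Il1b differed by 1.13. The lists overlap, since Cxcl10 counts both as a chemokine and as an NF-kB target, and Vcam1 both as a macrophage marker and as an NF-kB target. Of 6 receptor genes with a difference, none was 2-fold apart, and Ccr3, the eotaxin receptor gene, at 0.95 and the scavenging receptor gene Ackr2 at 0.93 were furthest apart. Ccr1 was not read above background on any of the 6 arrays.

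Among 9 genes of alternative macrophage activation with a difference, 4 were at least 2-fold higher and 1 lower, and the list's median was 0.08. Chil3, a chitinase-like protein gene, differed by 2.89, Retnla by 2.26 and the mannose receptor gene Mrc1 by 1.22, while Clec10a, a lectin gene, differed by -2.51. Arg1, the arginase gene, was well above background on the double KO array alone and was at least 21.1-fold higher there.

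**Figure D3:**
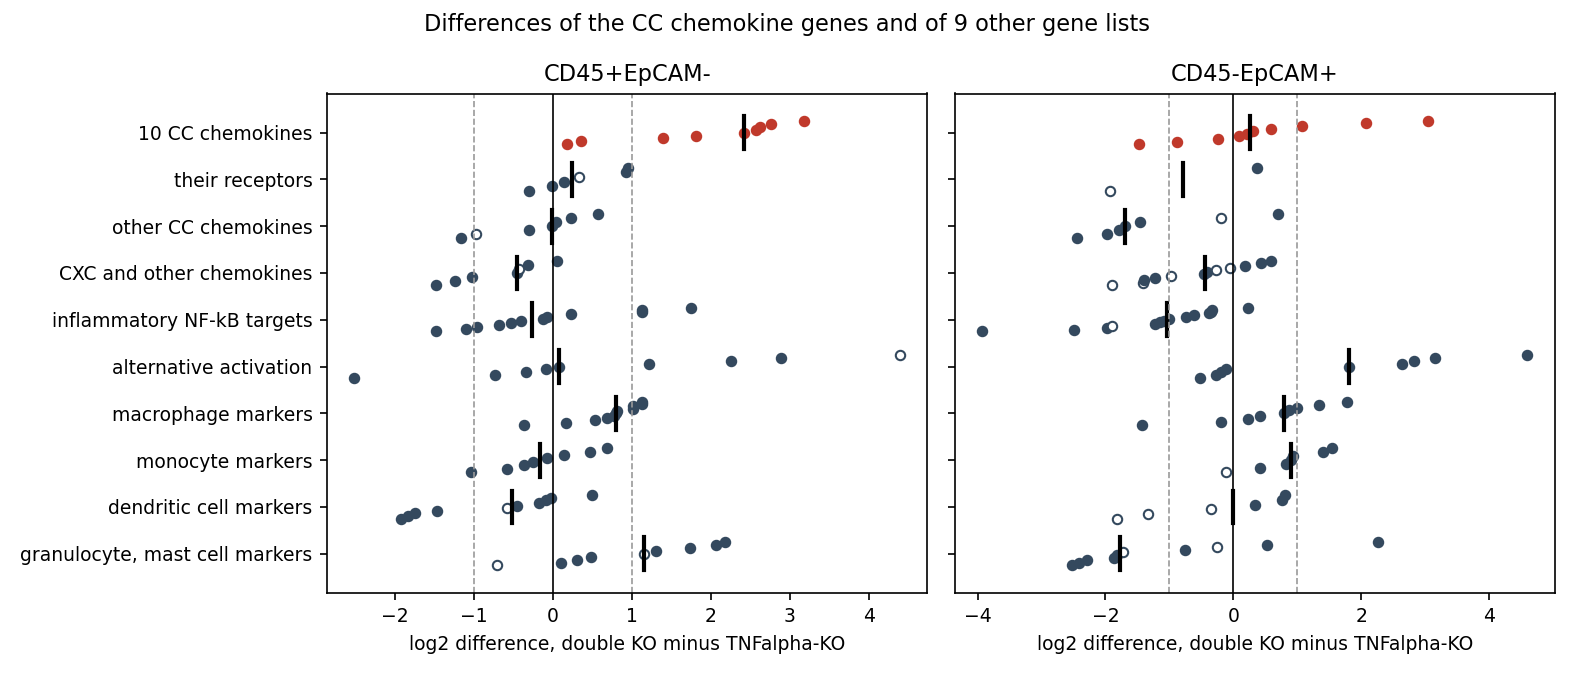
Log2 differences, double KO minus TNFalpha-KO (x axis), for the chemokine genes (red) and 9 other gene lists (dark blue), 1 point a gene, in CD45+EpCAM- stroma (left) and CD45-EpCAM+ cells (right). Open points are bounds, black bars are medians of the plotted genes and dashed lines mark 2-fold; in CD45+EpCAM- stroma the chemokine genes have a median of 2.42, the macrophage markers 0.81.

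In CD45-EpCAM+ cells the 10 chemokine genes went both ways. Ccl4, Ccl24 and Ccl7 were at least 2-fold higher in the double KO and Ccl9 was at least 2-fold lower, while the other 6 were within 2-fold. Over all 13208 genes with a difference, 5.1% were at least 2-fold higher and 9.3% at least 2-fold lower. The median of the 10 genes was 0.26, beside 0.03 over all genes. The genes nearest to 2-fold were Ccl7, at 1.07, inside it, and Ccl2, at -0.89, outside it.

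Ccl4 had the largest difference of the 10. Its level was -0.10 on the double KO array and -3.16 on the TNFalpha-KO array, a difference of 3.05 or 8.30-fold (2.01 with normexp). Ccl3, which encodes the other MIP-1 chain, had levels of -1.72 in the double KO and -2.32 in TNFalpha-KO, a difference of 0.60 or 1.51-fold. Ccl24 had levels of -0.96 in the double KO and -3.05 in TNFalpha-KO, a difference of 2.08 or 4.24-fold (1.40 with normexp). Before scaling, the signals of Ccl4 were 100.3 in the double KO and 41.5 in TNFalpha-KO, and those of Ccl24 were 55.3 in the double KO and 44.8 in TNFalpha-KO. Both genes thus had the higher signal on the dimmer array already, and dividing by the 75th percentiles of 108 in the double KO and 370 in TNFalpha-KO widened the difference. Ccl7 had the lower signal on the double KO array, 118 in the double KO and 192 in TNFalpha-KO, and was higher there only after scaling.

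The monocyte chemoattractant genes, higher together in CD45+EpCAM- stroma, went different ways in CD45-EpCAM+ cells. Ccl7 had levels of 0.13 in the double KO and -0.94 in TNFalpha-KO, a difference of 1.07, which fell under 2-fold, to 0.75, with normexp. Ccl2 had levels of -0.19 ± 0.12 (SD over 10 spots) in the double KO and 0.70 ± 0.07 (SD over 10 spots) in TNFalpha-KO, a difference of -0.89. Ccl8 differed by 0.30 and Ccl12 by 0.22, both within the SD of 0.32 between probes of 1 gene. Ccl9 had levels of 1.78 in the double KO and 3.25 in TNFalpha-KO, a difference of -1.48, or 2.78-fold lower. Its neighbour Ccl6 had levels of 2.69 in the double KO and 2.60 in TNFalpha-KO, a difference of 0.08 that turned to -0.30 with normexp. Ccl11, the eotaxin known from fibroblasts and epithelia, had levels of -1.96 in the double KO and -1.72 in TNFalpha-KO, a difference of -0.24 that turned to 0.34 with normexp.

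This sort also carried leukocyte transcripts that differed between the arrays. Ptprc, the gene of the sorting marker CD45, had a level of 0.72 in the double KO and -0.46 in TNFalpha-KO. Of 9 macrophage markers with a difference 2 were at least 2-fold higher in the double KO, Fcgr1 (1.77) and C1qc (1.35), and 1 was lower, Lyz2 (-1.43). The summed level of all 11 macrophage markers on the array was 5.39 in the double KO and 5.10 in TNFalpha-KO. Timd4, among the 11, was not well above background on either array. Monocyte markers summed to 6.74 in the double KO and 5.70 in TNFalpha-KO. That list summed higher still in CD4+CD25hi thymocytes, to 7.11 in the double KO and 6.95 in TNFalpha-KO, so its sum does not measure monocytes alone. T lineage markers summed to 7.33 in the double KO and 6.39 in TNFalpha-KO CD45-EpCAM+ cells. Of 10 granulocyte and mast cell markers 6 lay at least 2-fold lower and 1 higher, and their summed level was 3.49 in the double KO and 5.29 in TNFalpha-KO. Their part in the chemokine differences was not tested. Of 8 fibroblast and endothelial markers with a difference 1 was at least 2-fold higher, Dcn at 1.31. The summed level of all 10 on the array was 4.52 in the double KO and 3.80 in TNFalpha-KO. In CD4+CD25hi thymocytes the same list summed to 4.23 in the double KO and 3.30 in TNFalpha-KO. Kdr alone had levels of 4.12 and 3.15 there. This sum thus does not measure fibroblasts and endothelium alone either.

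The other chemokines and the NF-kB targets of this fraction had more genes lower than higher, and the alternative activation genes had more higher than lower. Of 7 other CC chemokines with a difference, 5 were at least 2-fold lower and none higher, Ccl1 at -2.45, Ccl5, which encodes the T cell attractant RANTES, at -1.97, and Ccl19 at -1.79 among them. Of 12 CXC and other chemokines with a difference 4 were lower and none higher. Of the 4, Cxcl1 and Cxcl14 were bounds, dim on the double KO array alone. On that list 7 genes were well above background on the double KO array and 14 on the TNFalpha-KO array. A gene dim on the double KO array alone could count only as lower, so its direction was fixed in advance. Of 14 inflammatory NF-kB targets 8 were lower and none higher, Saa3 at -3.93 and Ptgs2 at -2.49 among them. These lists overlap, since Cxcl1, Cxcl10 and Ccl5 count both as chemokines and as NF-kB targets. Of 9 alternative activation genes 5 were at least 2-fold higher and none lower: Cd209f (4.60), Retnla (3.16), Chil3 (2.83), Arg1 (2.64) and Clec10a (1.80). Among 7 receptor genes, 1 was well above background on the double KO array and 5 on the TNFalpha-KO array. The lowest level well above background was -2.82 on the double KO array and -4.78 on the TNFalpha-KO array. Ccrl2, a decoy-type receptor gene, was read on both and differed by 0.37. Ackr2 was read on the TNFalpha-KO array alone and was at least 3.81-fold lower in the double KO.

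In CD4+CD25hi thymocytes Ccl4 was the one chemokine gene of the 10 with a measured level. It was -2.95 in the double KO and -2.17 in TNFalpha-KO thymocytes, a difference of -0.77 or 1.71-fold lower, which shrank to -0.26 with normexp. Over all 12933 genes with a difference in thymocytes, 1.68% were at least 2-fold higher and 1.28% at least 2-fold lower. The other 9 genes had signals of 2.27 to 6.72 over both arrays. The macrophage markers were also dim in these arrays: of 11, 3 were well above background in the double KO and 4 in TNFalpha-KO thymocytes, C1qa and Adgre1 in neither.

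The genotype differences of the 2 stromal fractions were then set against each other gene by gene, over genes well above background on all 4 arrays. The difference was at least 2-fold higher in CD45+EpCAM- stroma than in CD45-EpCAM+ cells for 6 of 9 chemokine genes, and at least 2-fold lower for 1, Ccl4. Over all 10850 such genes 4.78% were at least 2-fold higher and 5.87% at least 2-fold lower. Ccl2 was furthest apart, with a genotype difference of 2.63 in CD45+EpCAM- stroma and -0.89 in CD45-EpCAM+ cells, a gap of 3.51. For Ccl9 the gap was 3.29 and for Ccl4 it was -2.69. Ccl24 had the most even difference among the genes at least 2-fold higher in both fractions, with a gap of 0.49. This comparison was added after the values had been seen.

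Between populations, both stromal fractions stood above CD4+CD25hi thymocytes for most of the genes. In both genotypes 8 of 8 genes with a fold were at least 2-fold higher in CD45+EpCAM- stroma than in thymocytes and none lower, against 9.13% higher and 6.26% lower among all 13134 genes. For CD45-EpCAM+ cells over thymocytes 9 of 10 were higher and none lower, against 23.3% higher and 14.4% lower among all 12674 genes. Most of these are bounds, since 9 of the 10 genes were dim in thymocytes. A gene dim in thymocytes could enter these counts only as higher in the other population, so its direction was fixed in advance. Ccl24 was at least 67.7-fold higher in CD45+EpCAM- stroma than in thymocytes in the double KO, and at least 14.3-fold in TNFalpha-KO. Between CD45-EpCAM+ cells and thymocytes, Ccl9 was at least 78.1-fold higher in the double KO and at least 273-fold in TNFalpha-KO. Ccl6 was at least 147-fold higher in the epithelial sort in the double KO and at least 174-fold in TNFalpha-KO. Ccl7 had no fold between CD45+EpCAM- stroma and thymocytes in TNFalpha-KO, because its stromal level of -4.86 was under -4.84, the lowest level well above background on the TNFalpha-KO thymocyte array. Ccl4 did not keep 1 order, since CD45-EpCAM+ cells were 7.19-fold above thymocytes in the double KO and 1.97-fold below them in TNFalpha-KO.

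Between the stromal fractions, 5 of the 10 genes were at least 2-fold lower in CD45+EpCAM- stroma than in CD45-EpCAM+ cells in both genotypes (Ccl6, Ccl7, Ccl8, Ccl9 and Ccl11), and 1, Ccl24, was at least 2-fold higher. Over all 12693 genes with a fold in both genotypes, 23.1% were lower and 15.9% higher. These gaps were smaller in the double KO for all genes measured on all 4 arrays except Ccl3 and Ccl24. Ccl9 differed by -2.59 in the double KO and -5.88 in TNFalpha-KO, and Ccl8 by -1.90 in the double KO and -4.37 in TNFalpha-KO. Ccl2 differed by -0.79 in the double KO and -4.31 in TNFalpha-KO, so that its order held but the gap was under 2-fold in the double KO. For Ccl11, which was dim in CD45+EpCAM- stroma, the gap was at least 12.0-fold in the double KO and at least 12.9-fold in TNFalpha-KO. Before scaling, Ccl2, Ccl6, Ccl7, Ccl8 and Ccl9 had the other order in the double KO. Their signals there were 341, 1334, 212, 343 and 383 in CD45+EpCAM- stroma. In CD45-EpCAM+ cells they were 94, 693, 118, 205 and 369. Dividing by the 75th percentiles of 675 and 108 thus reversed their order. In TNFalpha-KO the signals of these genes were lower in CD45+EpCAM- stroma before scaling too.

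The order of the 2 stromal fractions was also set beside the difference between genotypes within each fraction, which is no spread between replicates. The levels of Ccl4, Ccl12 and Ccl24 overlapped, and those of the other genes did not, with CD45+EpCAM- stroma the lower each time. No share over all genes is given for this order, so it only describes the 10 genes. It is an order after scaling. Before scaling, Ccl2, Ccl6, Ccl7, Ccl8 and Ccl9 had the other order in the double KO, and Ccl3 had it in both genotypes. The gap between the nearest levels was larger than the difference between genotypes in both fractions for Ccl9 and Ccl11. Ccl11 was dim on both CD45+EpCAM- arrays, so its gap was not measured on both sides. For Ccl9 the levels were -0.82 in double KO and -2.63 in TNFalpha-KO CD45+EpCAM- stroma, and 1.78 in double KO and 3.25 in TNFalpha-KO CD45-EpCAM+ cells. Ccl24 overlapped because its TNFalpha-KO level in CD45+EpCAM- stroma, -1.01, lay just under its double KO level in CD45-EpCAM+ cells, -0.96, although it was higher in CD45+EpCAM- stroma within each genotype. Ccl2, Ccl3, Ccl6, Ccl7 and Ccl8 did not overlap, but their gap was within the difference between genotypes of at least 1 fraction.

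**Figure D4:**
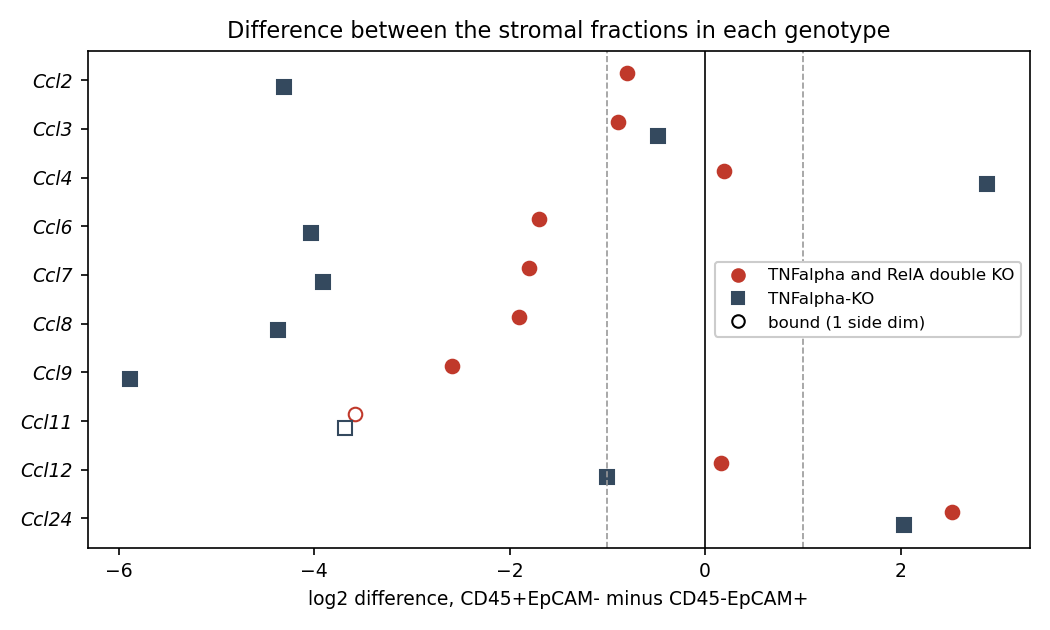
Log2 difference between the stromal fractions, CD45+EpCAM- minus CD45-EpCAM+ (x axis), in the double KO (red circles) and TNFalpha-KO (dark blue squares) for each gene. Open symbols are bounds and dashed lines mark 2-fold; Ccl2, Ccl6, Ccl7, Ccl8 and Ccl9 lie at -3.91 to -5.88 in TNFalpha-KO and nearer to 0 in the double KO.

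Likeness between the genes was measured as the root-mean-square distance between their profiles over the 6 arrays, each centred on its own mean. Ccl11, well above background on 2 of the 6 arrays, was left out. Ccl7 and Ccl8 were closest, at 0.28 (log2), and Ccl8 was also the nearest to Ccl2, at 0.45. Ccl3 and Ccl12 were each other's nearest, at 0.69, as were Ccl6 and Ccl9, at 1.03. Ccl4 was far from all of them, its nearest being Ccl3 at 1.50, and so was Ccl24, its nearest being Ccl12 at 1.31. Dim thymocyte levels enter all these profiles except that of Ccl4. Among 10211 other genes well above background on all 6 arrays, Ramp3 was nearest to Ccl8 (0.65, Pearson r of 0.97), Mt1 to Ccl9 (0.57, r of 0.99), Trf to Ccl12 (0.37, r of 0.99), Ptcra to Ccl3 (0.29, r of 0.99) and Lrr1 to Ccl4 (0.55, r of 0.92). For Ccl24 the nearest was Gzma, at 1.06 (r of 0.92), and then the complement gene C1qb, at 1.09 (r of 0.98). These r values describe 6 arrays that share 3 slides and carry no test.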

How the data were processed

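RNA of pooled cells was labelled with Cy3 and hybridised to 6 Agilent one-colour mouse arrays (design 026655), 1 for each of 2 genotypes in 3 sorted populations. The authors' scanner output gives intensity per spot, extracted with Feature Extraction 10.5.1.1 per the file headers (9.5 per the submitters' processing notes); its call of well above background was used as deposited. A value table was also deposited, with log2 values whose scale no source used here states. It matched the scaling below to within 0.05 for 100% of probes once a median offset of 0.0054 or less was removed, and its column medians ran from -3.71 to -2.72.

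Control spots and outlier spots were left out, spots of a probe were averaged as log2, and the 75th percentile of each array over 39419 probes was subtracted. Through transcript accessions in a RefSeq gene table of GRCm38.p6, 27472 probes got 1 symbol, 35 several and 11912 none. The array's own annotation uses another build, so coordinates are given for RefSeq promoters alone. Comparisons took genes that passed the background call on either array or both. A dim side was raised, where lower, to the lowest passing value of its array, which makes the fold a bound ("at least"). Where that left no fold the gene was dropped: 27 in CD45+EpCAM- stroma, 118 in the thymocytes and 2602 in the epithelial sort. Population contrasts counted genes at least 2-fold apart in 1 direction in both genotypes. The arithmetic was tested on simulated data. Python 3.11.15, pandas 2.3.3, R 4.3.3 and limma 3.58.1 were used. Alternatives were quantile normalization, median centring, normexp (limma, offset of 50, on median signal and median background, since no mean signal is in the files), the authors' table, the mean over probes, passing on both arrays, and no floor.

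The 10 genes and the gene lists were chosen with earlier results of these data known. The genes named were the 10, up to 4 per list and population with the largest difference read on both arrays, and the genes nearest in profile. Arg1 and Ackr2 as bounds, Clec10a in CD45-EpCAM+ cells, Ccl17 in CD45-EpCAM+ cells and markers named outside that rule were picked after their values were seen. Protein sequences were not used here.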

Additional observations from a re-analysis of the deposited data

Results flagged for a closer look

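In 3 genes the genotypes differed in opposite directions between populations, each time by more than the SD between probes of 1 gene. With 1 array a group these contrasts were not tested. Ccl2 differed by 2.63 (log2, double KO minus TNFalpha-KO) in CD45+EpCAM- stroma and by -0.89 in CD45-EpCAM+ cells. Ccl9 differed by 1.81 in CD45+EpCAM- stroma and by -1.48 in CD45-EpCAM+ cells. Ccl4 differed by 3.05 in CD45-EpCAM+ cells and by 0.36 in CD45+EpCAM- stroma, against -0.77 in CD4+CD25hi thymocytes.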

How the results depend on the processing

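Of the 11 differences between genotypes that were at least 2-fold, 11 kept their sign under all 7 alternatives and 9 stayed at least 2-fold; Ccl12 in CD45+EpCAM- stroma (0.83) and Ccl7 in CD45-EpCAM+ cells (0.75) did not with normexp. Counts of the 10 genes within a population and between the stromal fractions stayed within 1.5 times. The count at least 2-fold higher in CD45+EpCAM- stroma than in thymocytes, 8, was 3 with normexp and 1 where all 4 arrays had to be well above background, and the count for CD45-EpCAM+ cells over thymocytes, 9, was 0 under that filter, since it removes genes dim in thymocytes. Of all genes with a difference in CD45+EpCAM- stroma, 0.46% were at least 2-fold higher and 0.754% at least 2-fold lower with normexp, in place of 1.82% and 2.08%. In CD45-EpCAM+ cells, 35.4% of all genes past 2-fold were higher, against 45.3% with normexp, 45.4% where both arrays had to be well above background and 25.1% with no floor. No paired analysis was possible because each genotype had 1 array in each population, where the differences are given; a fit of genotype over all 6 arrays with population as a block, which asks for the mean difference over the populations, was not run. The number of arrays limits the precision.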

Other observations

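Chil3, which encodes a chitinase-like protein of macrophages and neutrophils, was higher in the double KO in all 3 populations, by 2.89 (log2) in CD45+EpCAM- stroma, 2.62 in CD4+CD25hi thymocytes and 2.83 in the epithelial sort. Its level in thymocytes was -1.40 in the double KO and -4.01 in TNFalpha-KO. The lowest level well above background on that TNFalpha-KO array was -4.84, so the thymocyte difference depends on a dim reading. Ccl17 was lower in both stromal fractions, with differences of -1.16 in CD45+EpCAM- stroma and -1.46 in CD45-EpCAM+ cells. Cxcl10, an interferon-induced chemokine gene, was lower in both stromal fractions as well, at -1.48 in CD45+EpCAM- stroma and -1.23 in CD45-EpCAM+ cells, and stood at 0.78 in thymocytes. These values come from 1 array a group and were not tested.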
